A study of Mus musculus with 33 samples.

Results

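GABAergic interneurons are the inhibitory nerve cells of the cortex, and 10 genes that mark them or their subclasses are described here: Gad1, Gad2, Slc32a1, Pvalb, Sst, Vip, Npy, Cck, Reln and Pnoc. The genes were taken by symbol from the 23366 rows in each of a pair of read count tables, 1 for female and 1 for male libraries. All 10 were found in both tables, and all 10 passed the filter on low counts in both sexes, which asked for a CPM, the reads of a gene scaled to a common library size, of at least 5 when summed over the libraries of a sex. Each gene had between 127 and 16146 reads in any library.

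RNA-Seq was performed on frontal cortex of C57BL/6 mouse offspring at about 1 month of age. Dams during pregnancy, and then nursing dams together with their pups, inhaled filtered air, e-cigarette aerosol from tobacco-flavored cartridges with nicotine (13 to 16 mg/mL), or aerosol from such cartridges without nicotine. The female libraries were 6 air, 5 nicotine and 5 no nicotine, and the male libraries 6 air, 6 nicotine and 5 no nicotine, with no allele or transgene named in the labels. By the study's methods 1 pup per litter was used, and the sexes were sequenced in separate runs, so that sex and run cannot be told apart.

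Interneurons make GABA from glutamate with the glutamic acid decarboxylases Gad1 and Gad2, and load it into synaptic vesicles with the transporter Slc32a1. Most cortical interneurons fall into a few subclasses, named for the protein or peptide that they contain: parvalbumin (Pvalb), somatostatin (Sst), vasoactive intestinal peptide (Vip), neuropeptide Y (Npy), cholecystokinin (Cck) and reelin (Reln), while Pnoc encodes the precursor of nociceptin. The 3 GABA genes are not limited to the cortex, since projection neurons of the striatum and other inhibitory neurons of the forebrain use them too, and in the cortex Cck is also made by excitatory pyramidal neurons.

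The tables held 19150562 to 27513174 reads per female library and 17845672 to 24787955 per male library. Libraries of a group differed by more than sampling noise, with a chi-square per degree of freedom of 4.46 to 30.9 over 75 pairs. The library labelled male nicotine replicate 21 went against its label, with 4632 Xist reads and 1 read over 4 Y-linked genes, where the other male libraries had at most 5 Xist reads. It was kept under its label, and the fold changes of nicotine-exposed males are given with and without it. Their counts of genes and their ranges are also given both ways where these moved. The figures, the counts of libraries above or below air, the CPM medians of Slc32a1 and Vip, the likeness of pattern and the DESeq2 values include it. The defining genes of cortical excitatory neurons were present in every library, at 4530 to 10725 summed CPM over 19 genes.

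The promoters of 4 of the genes are shown as RefSeq gives them on the GRCm38.p6 build, from 250 bases before to 50 bases after the transcript start, 5′ to 3′. Slc32a1 and Gad2 were chosen because their levels followed each other most closely, Vip because it was lower in 3 of the 4 comparisons with air, and Sst because it passed the test in none. Capitals mark the cyclic AMP response element (CRE, TGACGTCA) and the TATA box (TATAAA), searched on both strands. The 4 sequences lie at chr2:158610508-158610807 on the plus strand (Slc32a1), chr2:22622077-22622376 on the plus strand (Gad2), chr10:5638968-5639267 on the plus strand (Vip) and chr16:23890795-23891094 on the minus strand (Sst).
Slc32a1: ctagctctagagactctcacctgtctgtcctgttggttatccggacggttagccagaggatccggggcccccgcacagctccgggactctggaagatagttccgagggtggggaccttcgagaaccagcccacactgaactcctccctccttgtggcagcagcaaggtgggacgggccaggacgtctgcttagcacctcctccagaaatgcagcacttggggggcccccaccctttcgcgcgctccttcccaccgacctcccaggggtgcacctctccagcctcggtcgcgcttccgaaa
Gad2: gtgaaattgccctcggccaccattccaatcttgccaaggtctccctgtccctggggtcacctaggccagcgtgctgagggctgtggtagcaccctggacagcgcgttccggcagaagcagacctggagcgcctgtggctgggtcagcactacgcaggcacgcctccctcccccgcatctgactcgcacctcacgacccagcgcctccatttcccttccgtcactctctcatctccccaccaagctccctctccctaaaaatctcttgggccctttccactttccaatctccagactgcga
Vip: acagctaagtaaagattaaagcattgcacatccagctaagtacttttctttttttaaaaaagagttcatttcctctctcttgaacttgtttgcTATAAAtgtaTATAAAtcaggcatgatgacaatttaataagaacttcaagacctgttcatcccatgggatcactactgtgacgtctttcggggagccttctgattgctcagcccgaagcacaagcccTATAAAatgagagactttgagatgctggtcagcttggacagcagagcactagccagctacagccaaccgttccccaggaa
Sst: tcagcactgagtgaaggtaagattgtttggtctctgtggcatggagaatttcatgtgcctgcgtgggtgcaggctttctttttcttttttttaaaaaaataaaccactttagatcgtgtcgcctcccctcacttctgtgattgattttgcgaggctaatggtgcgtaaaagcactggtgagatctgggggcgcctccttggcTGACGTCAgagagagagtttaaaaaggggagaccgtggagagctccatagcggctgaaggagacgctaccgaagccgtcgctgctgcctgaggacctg
The CRE of Sst begins 48 bases before the start, and no other gene among the 9 found in the promoter table had a match, against 1.79% of 32851 promoters of this length. TATA boxes began 157, 147 and 30 bases before the start in Vip, and on the opposite strand 141 bases before the start in Gad1, while 13.6% of promoters held one. The matches did not overlap, and they describe letters only. Pnoc had no entry in the promoter table.

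In air, reads per length placed Cck and Sst at the top and Pnoc at the bottom. On the scale of normalised CPM per kb of the longest coding transcript, Sst reached 293 ± 19.6 (SD, n = 6) in females and 296 ± 26.8 (SD, n = 6) in males, and Cck 361 ± 69.6 and 268 ± 20.5. The ranges of these peptide genes overlapped in both sexes, and both lay above those of Npy, at 110 ± 21.6 in females and 93.7 ± 10.3 in males. Gad1 (80.7 ± 7.13 and 88.0 ± 8.74), Slc32a1 (68.6 ± 12.4 and 73.6 ± 9.999) and Gad2 (51.1 ± 9.70 and 56.7 ± 8.09) followed, and the range of Slc32a1 overlapped those of both decarboxylases. Pvalb, at 42.1 ± 14.7 in females and 29.0 ± 4.01 in males, overlapped Gad2 in females and not in males. The lowest levels per length were those of Vip (21.8 ± 2.92 and 18.8 ± 2.23), Reln (9.60 ± 1.17 and 9.98 ± 0.815) and Pnoc (4.79 ± 0.758 and 4.45 ± 0.520), none of which overlapped its neighbour. In the aerosol groups Slc32a1 stood above Npy by its mean in both sexes, although the ranges still overlapped.

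**Figure D1:**
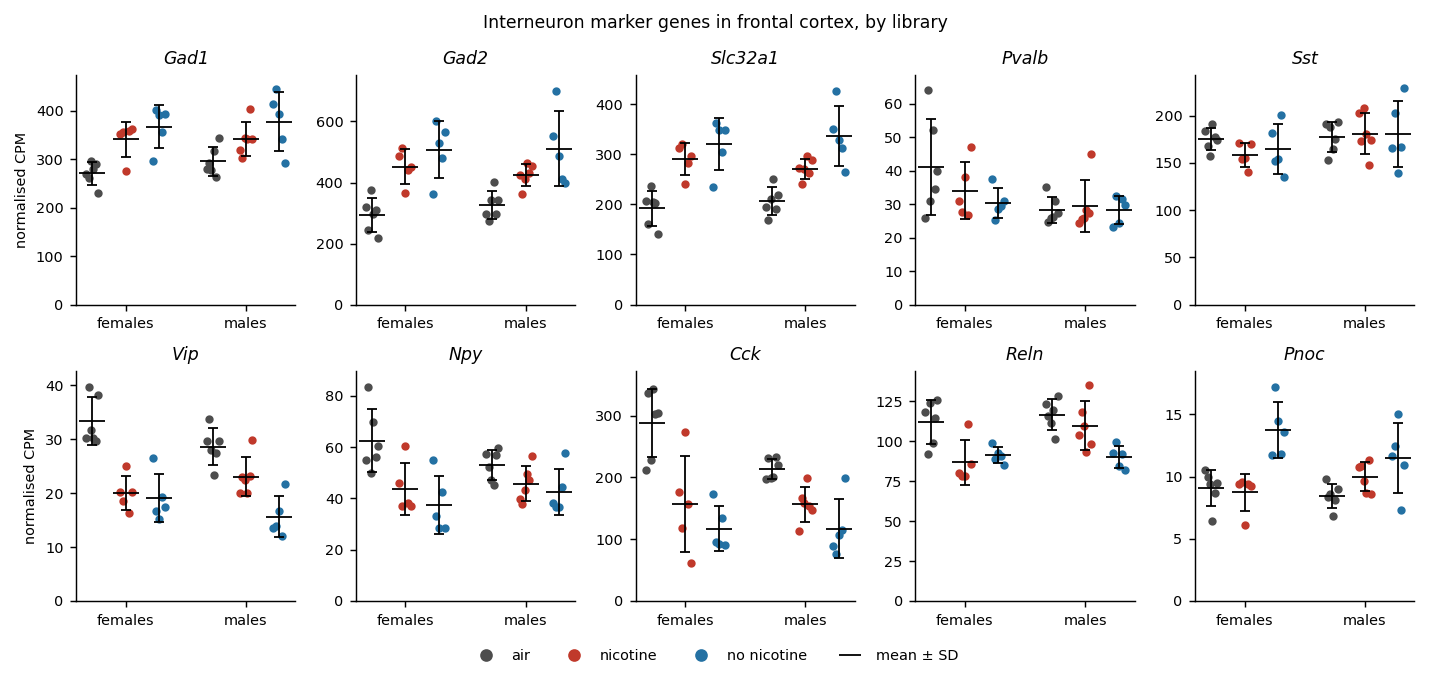
Normalised CPM of the 10 genes in each of the 33 libraries (points), with the mean and SD of each group (black); each panel starts at 0 and shows females on the left and males on the right, in the order air, nicotine, no nicotine. Gad2 and Slc32a1 sit higher and Vip and Cck lower in most aerosol libraries, whereas Sst spans 135 to 229 CPM over all groups.

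Gad2 and Slc32a1 rose and Vip fell against air in 3 of the 4 comparisons, all but males with nicotine, where no gene passed. Gad1, Npy, Reln and Pnoc each passed in 1 comparison, Cck in both without nicotine, and Sst and Pvalb in none. At an adjusted p below 0.01 (edgeR), 4 genes rose in females without nicotine (Gad1, Gad2, Slc32a1 and Pnoc) where 5.03% of the 15158 genes tested rose, and 3 fell (Vip, Npy and Cck) where 7.03% fell. Females with nicotine had 2 genes that rose, Gad2 and Slc32a1, against 1.98% of all genes, and 1 that fell, Vip, against 2.32%. Males without nicotine had 2 that rose, again Gad2 and Slc32a1, against 6.15% of 15293 genes, and 3 that fell, Vip, Cck and Reln, against 7.47%. None passed in males with nicotine, where 0% of all genes passed. At an unadjusted p below 0.05, 5 of the 10 genes passed there (Gad1, Gad2, Slc32a1, Vip and Cck) against 14.4% of all genes, and DESeq2 called 1, Slc32a1. Without the library labelled replicate 21 the count in nicotine-exposed males was also 0, and 5 genes (Gad2, Slc32a1, Vip, Cck and Reln) had an unadjusted p below 0.05, beside 13.1% of all genes.

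By role, the 3 GABA genes had a median log2 fold change of 0.60 in females with nicotine, 0.74 in females without, 0.38 in males with and 0.65 in males without, beside medians over all genes of 0.0041, 0.0092, 0.0065 and 0.016. The 7 subclass markers had medians of -0.37, -0.44, -0.087 and -0.32 in the same order. Without replicate 21 the medians in males with nicotine were 0.38 for the GABA genes and -0.16 for the subclass markers. These are bulk tissue values, in which fewer cells of a type and less RNA per cell cannot be told apart. Both aerosol groups of a sex were compared with the same air libraries.

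**Figure D2:**
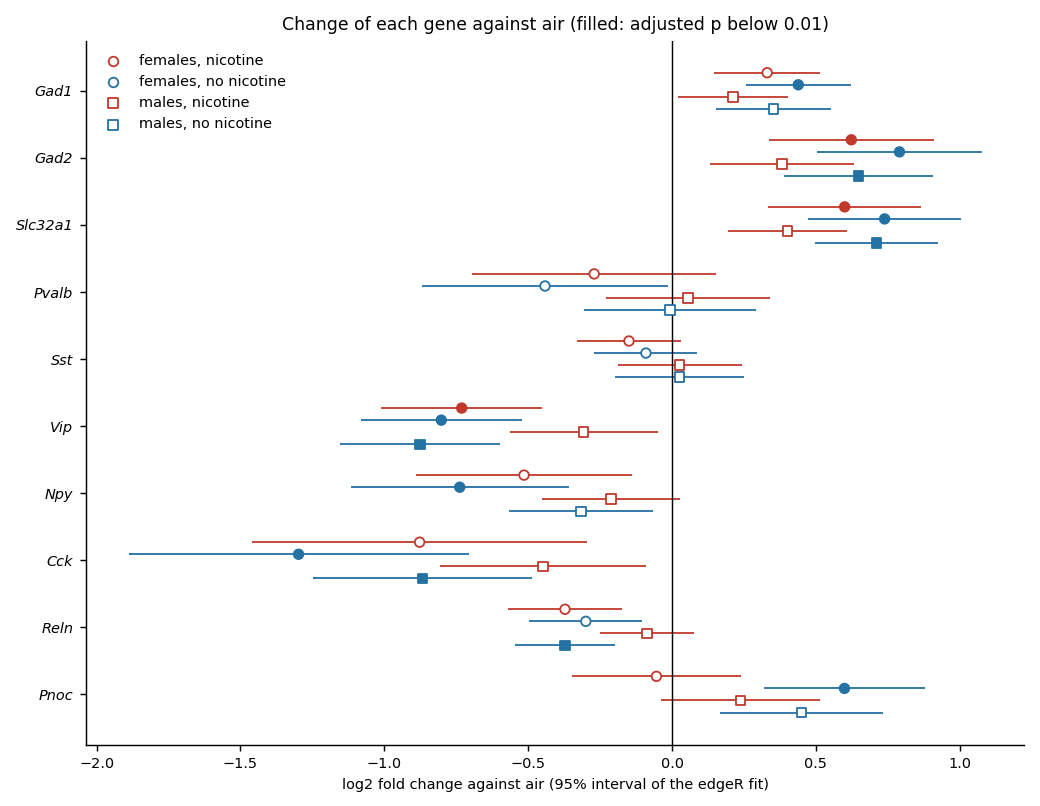
Log2 fold change of each gene against the air libraries of the same sex, with its 95% interval from the edgeR fit; circles are females, squares males, red nicotine and blue no nicotine, and filled symbols passed an adjusted p of 0.01. Gad1, Gad2 and Slc32a1 lie right of 0 in all 4 comparisons, Vip, Npy, Cck and Reln left of 0, and Sst and Pvalb close to 0 in males.

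Slc32a1, the vesicular GABA transporter (mm9 chr2:158436494-158441484), was the GABA gene with the clearest separation. In females the air libraries ran from 141 to 236 normalised CPM with a median of 204, the nicotine libraries stood at 313, 321, 242, 282 and 297 (replicates 1, 2, 3, 5 and 6), and the no nicotine libraries at 235, 363, 349, 305 and 349 (replicates 1 to 5). All 5 nicotine libraries were above every air library, and without nicotine only replicate 1 was within the air range. The log2 fold change in females was 0.60 ± 0.13 (SE, edgeR adjusted p = 0.0063) with nicotine and 0.74 ± 0.13 (edgeR adjusted p = 0.0011) without.

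Male air libraries spanned 168 to 251 CPM of Slc32a1 with a median of 203, and those with nicotine 240 to 297 with a median of 271. The no nicotine libraries of males read 350, 427, 328, 313 and 265 (replicates 2, 3, 4, 5 and 7), all 5 above the air libraries, whereas 5 of the 6 nicotine libraries were. Slc32a1 was higher by 0.71 ± 0.10 on the log2 scale (edgeR adjusted p = 0.0001) in males without nicotine. With nicotine the log2 difference was 0.40 ± 0.098 with an edgeR adjusted p of 0.078, and 0.41 with an adjusted p of 0.12 without replicate 21. Exons of Slc32a1 share bases with Gm14205 on the opposite strand, and without a stated strand in the counting reads of the pair cannot be told apart. The call in nicotine-exposed females was lost, with an adjusted p of at most 0.021, when any 1 of air replicates 2, 4, 5 and 6 or nicotine replicates 1, 2, 5 and 6 was left out.

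Gad2 (mm9 chr2:22477725-22549394), the decarboxylase found mainly at nerve terminals, moved much as Slc32a1 did. Female air libraries held 219 to 374 CPM with a median of 303, nicotine libraries 488, 515, 366, 442 and 450, and no nicotine libraries 362, 603, 528, 480 and 565. In each aerosol group 4 of 5 libraries were above all air libraries, the exceptions being nicotine replicate 3 and no nicotine replicate 1. Gad2 rose by 0.62 ± 0.14 (edgeR adjusted p = 0.0077) with nicotine and by 0.79 ± 0.14 (edgeR adjusted p = 0.0011) without. In males the no nicotine libraries at 553, 701, 487, 412 and 399 CPM gave a log2 fold change of 0.65 ± 0.12 (edgeR adjusted p = 0.00094) against air libraries of 274 to 402, of which only replicate 7 did not clear the range. Males with nicotine lay between 361 and 464 CPM, a log2 difference of 0.38 ± 0.12 with an edgeR adjusted p of 0.14, or 0.38 and 0.21 without replicate 21. In females with nicotine the call failed, with an adjusted p up to 0.027, without air replicate 2, 4, 5 or 6, nicotine replicate 1, 2, 5 or 6, or no nicotine replicate 3, 4 or 5.

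Gad1 (mm9 chr2:70391129-70440071), the decarboxylase that makes most brain GABA, had smaller fitted changes. Its normalised CPM was 271 ± 23.9 (SD, n = 6) in female air, 340 ± 36.9 (n = 5) with nicotine and 367 ± 43.9 (n = 5) without. Gad1 passed the test in females without nicotine, at 0.44 ± 0.087 on the log2 scale (edgeR adjusted p = 0.0021), where 4 of 5 libraries were above all air libraries. The log2 differences were 0.33 ± 0.087 in females with nicotine (edgeR adjusted p = 0.020), 0.35 ± 0.095 in males without nicotine (edgeR adjusted p = 0.011) and 0.21 ± 0.091 in males with nicotine (edgeR adjusted p = 0.29, and 0.16 with 0.47 without replicate 21). DESeq2 called Gad1 in females with nicotine (adjusted p = 0.0045) and in males without (adjusted p = 0.0037), as did the fits without female nicotine replicate 3 (adjusted p = 0.0039), without female no nicotine replicate 1 (adjusted p = 0.0076), and without male no nicotine replicate 7 (adjusted p = 0.0012), male air replicate 39 (adjusted p = 0.0063) or male nicotine replicate 21 (adjusted p = 0.0084). Of the 50-base windows of Gad1, 3.66% also occur in the pseudogene Gad1-ps, so its counts are slightly uncertain.

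The CPM of Gad2 per 100 of Gad1 ran from 93.3 to 127 in female air libraries, from 123 to 145 with nicotine and from 123 to 150 without. In males it ran from 94.0 to 127 in air, from 107 to 136 with nicotine (119 to 136 without replicate 21) and from 121 to 157 without. The aerosol ranges reached higher than air and overlapped it in every case.

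Vip (mm9 chr10:4698927-4707323), whose peptide marks interneurons that mostly inhibit other interneurons, fell in 3 of the 4 comparisons. Female air libraries held 29.7 to 39.7 CPM with a median of 30.98, nicotine libraries 20.2, 18.5, 25.0, 16.4 and 20.3, and no nicotine libraries 26.6, 16.8, 15.2, 19.4 and 17.5. Every female aerosol library was below every female air library. Vip fell by 0.73 ± 0.13 on the log2 scale with nicotine (edgeR adjusted p = 0.0029) and by 0.80 ± 0.13 without (edgeR adjusted p = 0.00097).

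Males had 23.3 to 33.7 CPM of Vip in air with a median of 28.8, and 13.6, 13.98, 16.7, 11.995 and 21.7 without nicotine. All 5 of the latter were below the air libraries, and Vip fell by 0.88 ± 0.13 (edgeR adjusted p = 0.00016). With nicotine the male libraries spanned 20.01 to 29.8 with a median of 22.7, and 5 of 6 were below air. That difference was -0.31 ± 0.12 with an edgeR adjusted p of 0.25, or -0.31 and 0.32 without replicate 21. Leaving out female nicotine replicate 2 raised the adjusted p in nicotine-exposed females to 0.011.

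Cck (mm9 chr9:121398943-121404807) encodes the precursor of cholecystokinin and had the largest fitted change of the 10 genes in females. In females, air libraries held 212 to 344 CPM with a median of 304, nicotine libraries 176, 118, 273, 156 and 60.9, and no nicotine libraries 173, 95.1, 92.2, 135 and 90.4. All 5 no nicotine libraries were below air, and nicotine replicate 3 alone among the nicotine libraries was within the air range. Cck fell by 1.30 ± 0.28 without nicotine (edgeR adjusted p = 0.0036), and with nicotine differed by -0.88 ± 0.28 at an edgeR adjusted p of 0.046. Among males the no nicotine libraries at 89.1, 76.3, 107, 114 and 199 CPM set against air libraries at 197 to 233 gave a fall of 0.87 ± 0.18 (edgeR adjusted p = 0.0019), with replicate 7 inside the air range. Male nicotine libraries at 113 to 200 CPM differed from air by -0.45 ± 0.17 (edgeR adjusted p = 0.23, and -0.44 with 0.30 without replicate 21). Without female nicotine replicate 3 the change in nicotine-exposed females passed, at -1.17 and an adjusted p of 0.0064. The call in females without nicotine was lost without no nicotine replicate 2, 3 or 5, with adjusted p values of 0.012 to 0.013.

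Npy (mm9 chr6:49772709-49779506), a peptide of neurogliaform and some Sst interneurons, fell in females without nicotine only by the test of that comparison. There the libraries read 54.8, 33.1, 28.3, 42.5 and 28.6 CPM, 4 of 5 below air libraries of 49.96 to 83.4, with a fall of 0.74 ± 0.18 (edgeR adjusted p = 0.0070). The other log2 differences were -0.51 ± 0.18 in females with nicotine (edgeR adjusted p = 0.067), -0.32 ± 0.12 in males without (edgeR adjusted p = 0.060) and -0.21 ± 0.11 in males with nicotine (edgeR adjusted p = 0.41, and -0.22 with 0.46 without replicate 21). The female call was lost without any 1 of air replicates 2, 4, 5 and 6 or no nicotine replicates 2 to 5, at adjusted p values up to 0.023, and without male no nicotine replicate 7 the males passed at -0.45 and 0.0039.

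Reln (mm9 chr5:21390272-21850523), a secreted matrix protein made by interneurons of the outer layers, fell in males without nicotine. The male no nicotine libraries at 92.6, 99.4, 84.4, 92.0 and 82.3 CPM were all below the air libraries at 101 to 128.5, a fall of 0.37 ± 0.083 (edgeR adjusted p = 0.0030). In females the log2 differences were -0.37 ± 0.094 with nicotine (edgeR adjusted p = 0.016) and -0.30 ± 0.093 without (edgeR adjusted p = 0.027), and in males with nicotine -0.087 ± 0.078 (edgeR adjusted p = 0.67, and -0.16 with 0.33 without replicate 21). Female nicotine replicate 5, at 111 CPM, was the only one of its group within the female air range of 92.1 to 126. Without it Reln passed in females with nicotine (-0.48, edgeR adjusted p = 0.0027) and without nicotine (-0.31, edgeR adjusted p = 0.0076). Reln also passed in females with nicotine without air replicate 2 (edgeR adjusted p = 0.0094) and by DESeq2 (adjusted p = 0.0030). The male call was lost without no nicotine replicate 4, where the adjusted p rounded to 0.010 and lay above the threshold. Reln shares exon bases with Gm10475 on the opposite strand.

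Pnoc (mm9 chr14:66019510-66044046) was the single subclass marker that rose, and it did so in females without nicotine. Those 5 libraries held 11.7, 17.2, 14.5, 11.8 and 13.5 CPM, all above the female air range of 6.42 to 10.5, for a rise of 0.60 ± 0.13 (edgeR adjusted p = 0.0043). Female nicotine libraries stayed at 6.07 to 9.52 CPM and differed from air by -0.054 ± 0.14 (edgeR adjusted p = 0.84). Male values were 8.43 ± 0.985 CPM (SD, n = 6) in air, 9.97 ± 1.16 (n = 6, or 9.70 ± 1.08 without replicate 21) with nicotine and 11.5 ± 2.79 (n = 5) without, with log2 differences of 0.24 ± 0.13 (edgeR adjusted p = 0.43, and 0.20 with 0.58 without replicate 21) and 0.45 ± 0.14 (edgeR adjusted p = 0.020). The female call was lost without air replicate 5 or no nicotine replicate 2, 3 or 5 (adjusted p up to 0.017), and Pnoc passed in males without no nicotine replicate 5 (0.57, adjusted p = 0.0011).

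Sst and Pvalb, which mark the most numerous interneuron subclasses of the cortex, passed the test in no comparison. Sst (mm9 chr16:23889667-23890930) held 175 ± 11.8 CPM (SD, n = 6) in female air, 158 ± 12.7 (n = 5) with nicotine and 165 ± 26.2 (n = 5) without, and in males 178 ± 16.1 (n = 6), 181 ± 21.99 (n = 6, or 188 ± 16.6 without replicate 21) and 181 ± 35.1 (n = 5). The 95% intervals of its log2 change were -0.33 to 0.030 and -0.27 to 0.088 in females with and without nicotine, and -0.19 to 0.24 and -0.20 to 0.25 in males. Pvalb (mm9 chr15:78021544-78036830), a calcium buffer of fast-spiking cells, varied most among female air libraries, from 25.8 to 64.0 CPM. Its intervals in females were -0.70 to 0.15 with nicotine and -0.87 to -0.015 without, the latter with an edgeR adjusted p of 0.12. In males they were -0.23 to 0.34 and -0.31 to 0.29. Without replicate 21 the male nicotine differences were 0.078 for Sst and 0.076 for Pvalb, with adjusted p values of 0.80 and 0.88.

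Counted by ranges that did not overlap with air, 1 of the 10 genes was higher in females with nicotine (Slc32a1) and 1 lower (Vip), beside 3.07% and 3.6% of all genes tested. Without nicotine in females 1 was higher (Pnoc) and 2 lower (Vip and Cck), beside 4.4% and 6.27%. In males without nicotine 1 was higher (Slc32a1) and 2 lower (Vip and Reln), beside 5.48% and 6.94%, and with nicotine none was higher or lower, beside 0.804% and 1.24%, also without replicate 21.

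The libraries of a group were not alike in how far they stood from air. In females without nicotine, replicates 2 to 5 were outside the air range for all 7 genes that passed there, and replicate 1 for 3 of 7. In females with nicotine replicate 3 was outside for 2 of 3 genes and the others for all 3. In males without nicotine replicate 7 was outside for 3 of 5 genes and the other 4 libraries for all 5. The genes counted had passed the test on these same libraries, so the counts are a description and not a further test.

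The aerosols with and without nicotine were also compared with each other. By the study's methods the exposure chambers were separate, and mean particulate levels were lower with nicotine than without. In this comparison nicotine therefore cannot be told apart from aerosol level or chamber. None of the 10 genes passed in females, where 0% of all genes passed, and at an unadjusted p below 0.05 only Pnoc did, beside 8.35% of all genes. Pnoc was lower with nicotine by 0.65 ± 0.14 on the log2 scale, in 5 of 5 libraries, at an edgeR adjusted p of 0.57. DESeq2 also called none of the 10 in females. In males none passed, beside 0.248% of all genes, and 5 did at an unadjusted p below 0.05 (Gad2, Slc32a1, Vip, Cck and Reln), beside 20.1%. All 5 were nearer to air with nicotine than without: the log2 differences of nicotine minus no nicotine were -0.27 ± 0.12 for Gad2, -0.31 ± 0.10 for Slc32a1, 0.57 ± 0.13 for Vip, 0.42 ± 0.18 for Cck and 0.29 ± 0.083 for Reln, with edgeR adjusted p values of 0.24, 0.096, 0.027, 0.20 and 0.062. Without replicate 21 they were -0.27, -0.30, 0.57, 0.43 and 0.22, with adjusted p values of 0.29, 0.16, 0.051, 0.25 and 0.12, and all but Gad2 had an unadjusted p below 0.05, beside 18.4% of all genes. DESeq2 called Vip (adjusted p = 0.0019), and without no nicotine replicate 7 edgeR called Vip (0.71, adjusted p = 0.0032) and Cck (0.69, adjusted p = 0.0055).

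The change in males minus the change in females passed for none of the 10 genes with nicotine (0% of 15102 genes passed) and for none without (0%). With nicotine, Vip (0.41 ± 0.19) and Reln (0.28 ± 0.13) had an unadjusted p below 0.05, beside 6.48% of all genes, with edgeR adjusted p values of 0.76 and 0.76. Without replicate 21 these were 0.41 for Vip (edgeR adjusted p = 0.81) and 0.21 for Reln (edgeR adjusted p = 0.84), and Reln no longer had an unadjusted p below 0.05. Without nicotine none did, beside 4.92%. DESeq2 called none in either case, and edgeR none without replicate 21. The 95% intervals without nicotine ran from -0.38 to 0.31 for Slc32a1, from -0.54 to 0.25 for Gad2 and from -0.48 to 0.32 for Vip, and differences between the sexes up to these sizes were not distinguishable here.

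Ratios of genes within a library do not depend on the scaling between libraries, and are given as a description, since the change of each gene is already known from its level. Vip CPM per 100 of Slc32a1 ran from 13.4 to 27.2 in female air libraries, from 5.75 to 10.3 with nicotine and from 4.34 to 11.3 without, with no overlap with air. In males it ran from 9.32 to 20.03 in air, from 6.75 to 10.4 with nicotine, also without replicate 21, and from 3.27 to 8.18 without nicotine, so that the nicotine range overlapped air and the no nicotine range did not. Sst per 100 of Slc32a1 had medians of 91.1, 54.6 and 44.1 in female air, nicotine and no nicotine libraries and of 90.2, 66.4 (72.0 without replicate 21) and 47.5 in male ones. The medians of Pvalb per 100 of Slc32a1 were 21.2, 9.85 and 8.87 in females and 13.6, 9.98 (9.54 without replicate 21) and 7.58 in males. Slc32a1 is the part of these ratios that passed the test, in all but males with nicotine. Male ranges overlapped, with Pvalb per 100 of Slc32a1 at 10.4 to 17.9 in air and 8.92 to 15.6 with nicotine. Sst per 100 of Slc32a1 in males was 65.8 to 97.8 in air and up to 86.5 without nicotine. Female Pvalb ratios overlapped too, at 12.5 to 39.6 in air, 8.63 to 15.8 with nicotine and 6.98 to 15.9 without. Female Sst ratios, 66.7 to 124 in air, overlapped without nicotine (up to 77.5) and not with nicotine (up to 64.2). Vip per 100 of Sst, where neither gene is a GABA enzyme or transporter, ran from 15.9 to 23.6 in female air, 11.7 to 16.1 with nicotine and 9.67 to 14.6 without, and in males from 14.2 to 21.96, 9.86 to 17.1 (also without replicate 21) and 6.91 to 11.97.

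**Figure D3:**
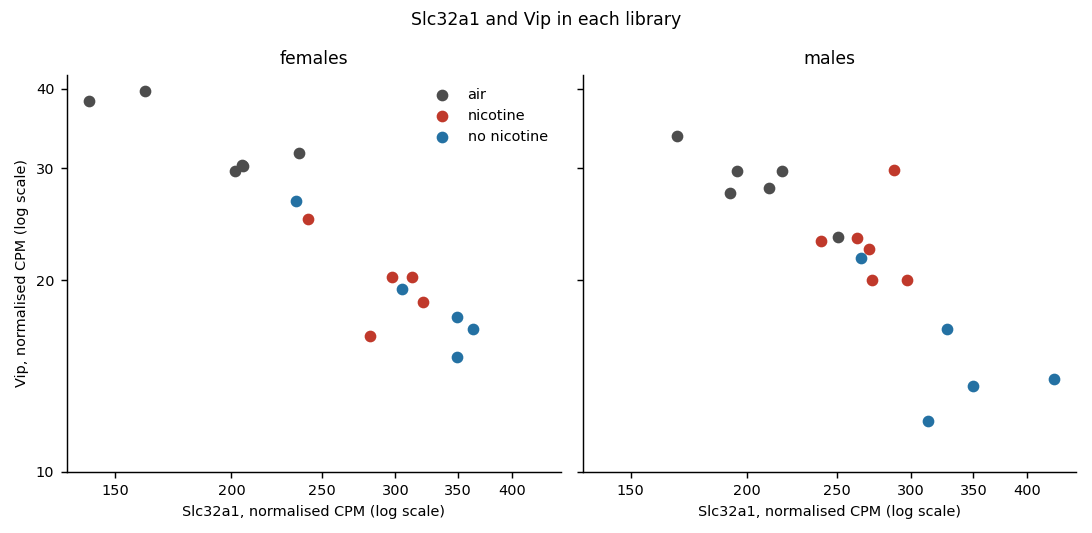
Normalised CPM of Slc32a1 (horizontal, log scale) and Vip (vertical, log scale) in each library, females on the left and males on the right, colored by treatment. Air libraries lie at low Slc32a1 and high Vip, no nicotine libraries at the other end, and female no nicotine replicate 1 (235 and 26.6 CPM) and male no nicotine replicate 7 (265 and 21.7 CPM) nearest to air.

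Likeness of pattern was measured over the 33 libraries as the root mean square difference in log2 CPM after centring each gene within each table. Of 15104 genes, Slc32a1 was the nearest to Gad2 and Gad2 the nearest to Slc32a1, at 0.062, where the median gene was at 0.40 and 0.39. Gad1 had its nearest genes outside the list, Acly at 0.088 and Bcat1 at 0.095. Vip was nearest to Col19a1 (0.17), Cck to Ipcef1 (0.22), and Npy to 1110008P14Rik (0.12). For Sst the nearest genes, Ubald1 and Med16, were both at 0.13, beside a median of 0.22, and for Pvalb, Reln and Pnoc they were Scrt1 (0.16), Vps13c (0.13) and Wdr6 (0.17). The measure is a description, and the libraries it runs over share their treatment groups and sequencing runs.

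Other genes of the GABA system were read from lists of uptake and breakdown genes, interneuron transcription factors and further subclass genes. The shares of all genes beside these counts are those given above, 1.98%, 5.03%, 0% and 6.15% that rose and 2.32%, 7.03%, 0% and 7.47% that fell in females with and without nicotine and males with and without. Of 6 uptake and breakdown genes, 1 rose in females with nicotine, 3 in females without, none in males with and 4 in males without, and none fell. Their median log2 fold changes were 0.20, 0.28, 0.17 (also without replicate 21) and 0.25. Abat, the transaminase that breaks down GABA, rose by 0.36 ± 0.069 (edgeR adjusted p = 0.0039) and 0.44 ± 0.069 (edgeR adjusted p = 0.00084) in females with and without nicotine and by 0.46 ± 0.066 (edgeR adjusted p = 0.00011) in males without. Slc6a11, a GABA transporter of astrocytes, rose by 0.88 ± 0.15 (edgeR adjusted p = 0.0012) in females and 0.74 ± 0.10 (edgeR adjusted p = 9.6e-05) in males without nicotine. Aldh5a1, the next enzyme of GABA breakdown, rose by 0.25 ± 0.059 and 0.27 ± 0.048 in the same comparisons (edgeR adjusted p = 0.0059 and 0.00056).

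Of 15 interneuron transcription factors, 1, 3, 0 and 5 rose and 1, 1, 0 and 1 fell in females with and without nicotine and males with and without, with medians of 0.30, 0.28, 0.095 (0.11 without replicate 21) and 0.27. Lhx6, needed by interneurons that come from the medial ganglionic eminence, went from 27.1 ± 4.23 CPM (SD, n = 6) to 53.1 ± 14.2 (n = 5) in females without nicotine (log2 0.97 ± 0.17, edgeR adjusted p = 0.0013) and from 27.7 ± 3.83 to 48.5 ± 9.83 in males (0.81 ± 0.12, edgeR adjusted p = 0.00013). Nkx2-1, which specifies that eminence and stays on in neurons of the basal forebrain, rose by 2.16 ± 0.40 (edgeR adjusted p = 0.0015) and 1.66 ± 0.25 (edgeR adjusted p = 0.00013), from 1.39 and 1.87 CPM in air. Dlx6 rose in males without nicotine by 0.77 ± 0.12 (edgeR adjusted p = 0.00023), and Dlx5 in females with nicotine by 0.73 ± 0.16 (edgeR adjusted p = 0.0077). Satb1, a chromatin organiser of Sst and Pvalb interneurons that excitatory neurons also use, was the 1 that fell, by 0.63 ± 0.13 (edgeR adjusted p = 0.0047) and 0.69 ± 0.13 (edgeR adjusted p = 0.0015) in females with and without nicotine and by 0.42 ± 0.093 (edgeR adjusted p = 0.0031) in males without, where it was named after its values were seen.

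Of 25 further subclass genes, 1, 3, 0 and 3 rose and 0, 1, 0 and 1 fell, with medians of 0.0057, 0.026, 0.033 (0.023 without replicate 21) and 0.050. In males without nicotine, 1 rose when air replicate 31 or 38 or no nicotine replicate 2 or 3 was left out. There 5 rose without no nicotine replicate 7. The 1 gene that fell in each no nicotine comparison is a smaller share of the list than of all genes, and the genes named from it are single values, not a change of the list. Chodl, a marker of long-range Sst cells, rose in both sexes without nicotine, in females by 1.25 ± 0.24 (edgeR adjusted p = 0.0018). Calb2, the calcium-binding protein calretinin of many Vip cells, rose in females without nicotine by 1.27 ± 0.28 (edgeR adjusted p = 0.0038). Its level went from 23.7 ± 6.38 to 57.1 ± 19.4 CPM, while Vip fell in the same libraries. Lamp5, a marker of neurogliaform cells that is also found in upper layer excitatory neurons, fell there by 0.98 ± 0.22 (edgeR adjusted p = 0.0045). Tac1, the substance P precursor, which striatal projection neurons share, rose by 0.84 ± 0.17 in females with nicotine (edgeR adjusted p = 0.0052) and by 0.78 ± 0.17 in males without (edgeR adjusted p = 0.0026). Tac1 also rose in females without nicotine. In males without nicotine Elfn1, a synaptic protein of Sst cells, rose by 0.41 ± 0.092 (edgeR adjusted p = 0.0034), and Kcnc2, a potassium channel subunit of fast-spiking cells, fell by 0.30 ± 0.059 (edgeR adjusted p = 0.0013).

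Markers of other cells moved with these results, and without replicate 21 no gene of any list passed in males with nicotine either. Of 19 cortical excitatory neuron genes, 2 fell in females with nicotine, 12 in females without, none in males with and 12 in males without, while 1, 1, 0 and 2 rose. The fallers in females with nicotine were Bhlhe22 and Rasgrf2, and the genes that rose were Foxp2 in each case and Rspo1 in males, all named after their values were seen, as are the other genes of these lists. Their summed level was 8518 to 10725 CPM in female air libraries, 5971 to 8505 with nicotine and 4653 to 8408 without, and 8027 to 9121, 6617 to 7616 and 4530 to 7180 in males. Of 18 striatal projection neuron genes, 5, 3, 0 and 7 rose and none fell (Tac1, Six3 and Isl1 in all 3 of these comparisons, with Rgs9 and Ppp1r1b in females with nicotine), with summed medians of 2221, 3534 and 3081 CPM in female air, nicotine and no nicotine libraries and 2339, 3102 (3275 without replicate 21) and 3863 in male ones. The 7 striatal genes that rose in males without nicotine became 4 without no nicotine replicate 3 and 12 without no nicotine replicate 4. The 2 lists share no gene with the 10, and no gene of either was at 0 in every library of a group.

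All 8 basal forebrain cholinergic genes rose in females without nicotine, 7 in females with nicotine, none in males with and 7 in males without. Their sums were 22.2 to 82.4 CPM in female air, 86.0 to 199 with nicotine and 112 to 293 without, and 37.6 to 85.1, 97.0 to 146 and 114 to 241 in males. Of 10 myelin genes, 10, 9, 0 and 9 rose, and of 8 thalamus genes 3, 3, 0 and 2 rose (Tcf7l2 and Gbx2, with Plekhg1 in females) and Rora fell in males without nicotine. None of 10 astrocyte or 10 microglia genes passed in any comparison with air. In no comparison did an olfactory bulb gene pass, while 1 hypothalamus gene (Oxt), 1 endothelial gene (Slc2a1) and 4 of 8 choroid plexus genes (Clic6, Prlr, Otx2 and Ttr) rose in males without nicotine. The choroid plexus sum there was 978 CPM in replicate 7 and 33.4 to 60.9 in the other 4 libraries, beside 14.4 to 43.5 in air, and without replicate 7 the list's median log2 fold change went from 2.34 to 0.26 and 3 genes passed. In males without nicotine the hypothalamus call was lost without air replicate 38 or no nicotine replicate 3 or 4. The endothelial rise was lost in most fits that left a library out. In those without air replicate 37 or no nicotine replicate 4 or 7, 1 endothelial gene fell. The part of these cell type markers in the change of the 10 interneuron genes was not tested.

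**Figure D4:**
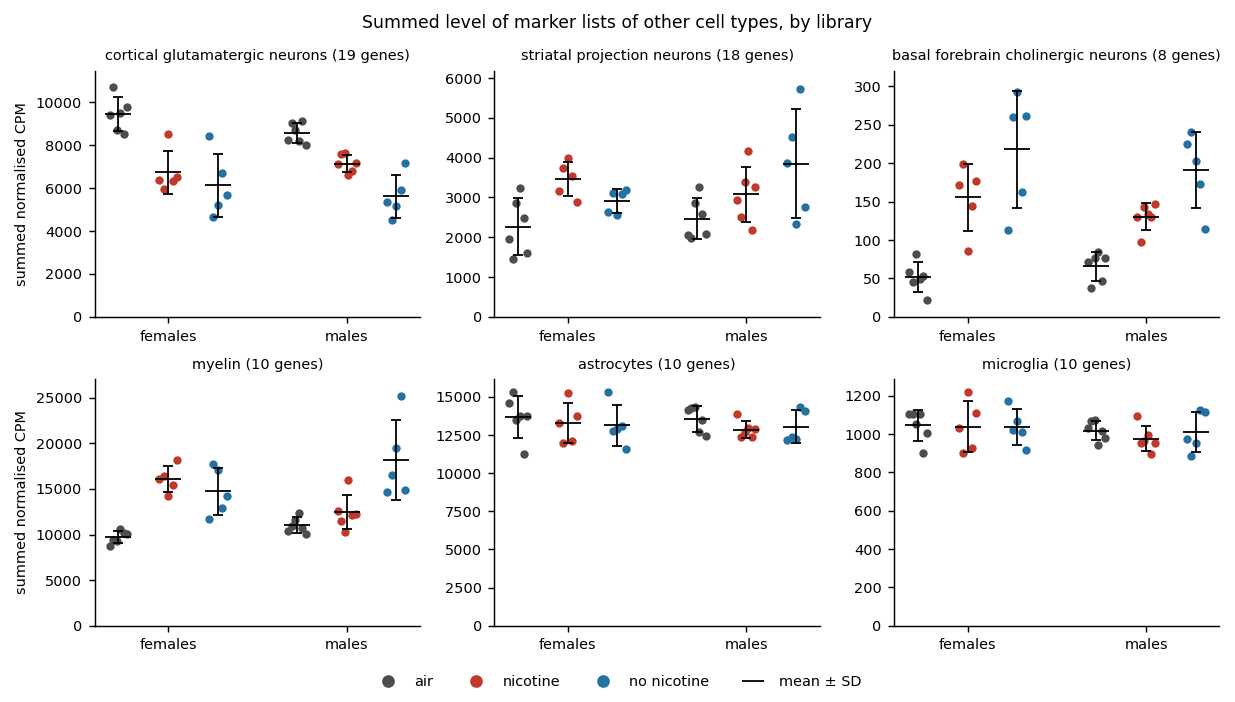
Summed normalised CPM of 6 marker lists of other cell types in each library (points), with the mean and SD of each group (black), in the order air, nicotine, no nicotine for females on the left and males on the right. In each aerosol group the excitatory sums lie below and the cholinergic sums above those of all air libraries of the same sex, although no gene of these lists passed in males with nicotine, where the myelin sums (10297 to 15930 CPM) overlap air (10069 to 12407 CPM), and astrocyte and microglia sums overlap between groups.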

How the data were processed

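RNA-Seq read counts per gene were deposited by the authors as 1 raw count table per sex. By the study's methods, single reads were demultiplexed with bcl2fastq, mapped to the mm9 mouse transcriptome with Bowtie, cleared of PCR duplicates by SAMtools, and counted by HTSeq. Strand use in the counting is not given in the sources used here. The deposited normalized tables were not used. Of the count columns, 33 were matched by name to a labelled sample and 1 was not used. Both tables hold 4 rows whose shared symbol was turned into a date.

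Per sex, genes with at least 5 CPM summed over its libraries were scaled by TMM and tested in edgeR 4.0.16 (R 4.3.3) by quasi-likelihood, with all 3 treatments fitted jointly and no covariate. P-values were adjusted by the Benjamini-Hochberg procedure over all genes tested, with a threshold of 0.01. The difference of changes between the sexes was fitted over all 6 groups on 15102 genes. P-values measure the spread between these libraries. By the methods only 1 pup per litter was used, and whether male and female libraries shared litters was not checked. CPM uses the TMM library sizes, and log2 CPM a prior count of 1. The fits were tested on simulated data.

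The 10 genes and the marker lists were chosen with earlier results of these data known. Named beside the 10 were up to 3 genes with the smallest p per comparison from each further list of GABA and interneuron genes, the genes nearest in pattern, and Xist and Y-linked genes. Alternatives were DESeq2 1.42.0, upper quartile normalization, RLE size factors, no filter or a stricter one (CPM of 1 in 5 libraries), fits of only the 2 groups compared, a threshold of 0.05, a replicate block in females, and leaving out each library. Lengths and positions came from the mm9 annotation and promoters from RefSeq (GRCm38.p6). Python 3.11.15, pandas 2.3.3 and matplotlib 3.10.9 were used.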

Additional observations from a re-analysis of the deposited data

Results flagged for a closer look

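In 5 of 60 groups of libraries, 1 library stood further from the others than the 95% critical value of Dixon's test allows, and chance alone gives about 1 such group in 20. Female nicotine replicate 3 had 274.8 CPM of Gad1, below the 352 to 362 of the other libraries of its group, and 6.065 CPM of Pnoc, below 9.26 to 9.52. Male nicotine replicate 22 had 45.00 CPM of Pvalb, above 24.3 to 28.1, and 29.80 CPM of Vip, above 20.01 to 23.3. Female nicotine replicate 5 had 111.1 CPM of Reln, above 78.1 to 86.0.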

How the results depend on the processing

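For the 10 genes in the 6 comparisons within a sex, RLE size factors, upper quartile normalization, no filter, a stricter filter and fits of only the 2 groups compared left the number of called genes as it was and turned a single direction, that of Sst in males with nicotine against no nicotine, from 0.00016 to -0.00068 with upper quartile normalization and to -4.03e-05 with the stricter filter. The 3 genes called in females with nicotine became 6 at an adjusted p of 0.05, 5 with DESeq2 and 0 to 5 when each library was left out. They were 0 without nicotine replicate 2, 5 without nicotine replicate 3, and 1 without air replicate 4, 5 or 6 or nicotine replicate 1 or 6. The 7 genes called in females without nicotine became 4 to 8, with 4 without no nicotine replicate 2, 3 or 5. The 5 genes called in males without nicotine became 7 at an adjusted p of 0.05, 6 with DESeq2 and 4 to 7 with each library left out, with 4 without no nicotine replicate 4 and 7 without replicate 7. In males with nicotine 0 became 1 with DESeq2, and in males with against no nicotine 0 became 1 at an adjusted p of 0.05, 1 with DESeq2 and 0 to 2 with each library left out. Over all genes, DESeq2 called 1319 in place of 651 in females with nicotine, 159 in place of 0 in males with nicotine and 456 in place of 38 in males with against no nicotine, and the fits of only the 2 groups compared called 17 and 0 in the latter pair. Leaving out each library gave 226 to 920 genes in females with nicotine, 833 to 2488 without, 0 to 2 in males with nicotine and 0 to 246 in males with against no nicotine. Upper quartile normalization changed the split of higher and lower genes in females from 300 and 351 to 372 and 242 with nicotine, and from 763 and 1066 to 886 and 911 without. The cause was not tested, beyond the fewer libraries of the fits that left one out.

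Leaving out 1 library at a time turned the direction of 9 differences, none of which had passed the test. Their log2 values ran from -0.14 to 0.053 for Pnoc in females with nicotine, from -0.11 to 0.13 (with nicotine) and from -0.064 to 0.062 (without) for Pvalb in males, and from -0.017 to 0.078 and from -0.074 to 0.10 for Sst in males. For nicotine against no nicotine they ran from -0.12 to 0.022 for Sst and from -0.020 to 0.22 for Vip in females, and from -0.11 to 0.12 for Pvalb and from -0.076 to 0.10 for Sst in males. The calls that were lost or gained are given with each gene.

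With the replicate number of the female libraries as a replicate block, 0 of the 3 genes called with nicotine and 4 of the 7 called without were past the threshold, and 136 and 736 of all genes in place of 651 and 1829. In the labels these samples have only a number in common. Over 14 pairs of libraries with the same number the correlation of deviations ran from -0.27 to 0.27, and it was over 0.1 in 4. Of 16 libraries, 7 correlated best with their own number, and how many would do so by chance was not worked out. Whether the numbers mark a pairing was not tested. The male groups share no replicate number.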
